A study of Mus musculus with 14 samples.

Results

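Reporter organoids kept for 6 days in the vehicle DMSO were set against untreated organoids of the same reporter. The cells were those of these 2 single-cell libraries with at least 500 detected genes, at least 1000 UMIs (unique molecular identifiers, each standing for 1 captured transcript) and at most 20% of UMIs on mitochondrially encoded genes. They numbered 18579 of the 37340 cells of 4 single-cell libraries, 8969 from the DMSO library and 9610 from the untreated library. UMIs were summed over the cells of a library and given as CPM (UMIs per 1000000 UMIs of that library), and ratios are DMSO over untreated.

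The organoids were cultures of whole mouse intestinal epithelium in a medium with EGF, Noggin and R-spondin1 (ENR). Both libraries came from organoids with a Chgb-mCherry knock-in, in which the gene of chromogranin B, a protein of hormone granules, carries a red fluorescent reporter. The mCherry transcript was not analysed here. The DMSO group received 0.05% DMSO for 6 days from day 2 after passage, as the vehicle control for Isx-9, a small molecule given at 25 µM to another reporter culture. Untreated wild-type organoids made up the fourth library. The labels did not give the day on which untreated organoids were collected, so time in culture and DMSO cannot be told apart. They did not say how many cultures or mice stood behind a library, or whether the reporter line was 1 clone. With 1 library per group there was no test, and every interval is a 95% interval that covers counting error only.

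The intestinal epithelium is renewed from Lgr5-positive stem cells in the crypts, which give rise to absorptive enterocytes and to secretory goblet, Paneth, tuft and enteroendocrine cells. Organoids in ENR medium keep this order in small crypt-like buds. DMSO is a polar solvent for compounds, and a vehicle group shows what solvent and handling do without the compound.

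The kept cells held 127088170 UMIs in the DMSO library and 129967312 in the untreated library, with medians of 13388 and 12633 UMIs per cell. Cells with over 20% mitochondrial UMIs made up 19.7% of the deposited DMSO cells and 16.9% of the untreated cells. The libraries shared 13 cell barcodes. Summed levels of marker lists for other cell types were low and close: mesenchymal 38.1 and 35.3 CPM (untreated and DMSO), immune 2.12 and 2.56, endothelial 3.58 and 3.7, neuronal and glial 7.4 and 7.51 and erythroid 0.292 and 0.393 CPM. Of their members 6 had enough UMIs to be compared, and 0 of these passed 1.5-fold. The Y-linked gene Ddx3y had 30.8 and 31.6 CPM, and Xist 0.239 and 0.157 CPM, while the wild-type library held Xist at 427 CPM beside Ddx3y at 20.4 CPM.

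The libraries differed little gene by gene. Of 12123 genes with at least 200 UMIs over both libraries, 97.4% had levels within 1.25-fold of each other. The median log2 ratio was -0.01, and the central 95% of genes lay between -0.22 and 0.27. At least 1.5-fold higher with DMSO were 38 genes (0.313% of those tested), and at least 1.5-fold lower were 13 (0.107%), together 51 (0.421%). Past 2-fold there were 5 higher (0.0412%) and 2 lower genes (0.0165%), together 7 (0.0577%). The same measure for wild type over untreated reporter, both without treatment, gave 538 higher (4.39%) and 296 lower genes (2.42%) of 12245, together 834 (6.81%), with 84.5% of genes within 1.25-fold. Among these genes were Xist (427 CPM in wild type, 0.239 in untreated reporter), Hoxb9 (47.8 and 2.56) and the ileal gene Fabp6 (117 and 4.15). So the wild-type comparison is more than a repeat of untreated culture. Both comparisons share the untreated reporter library.

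**Figure D1:**
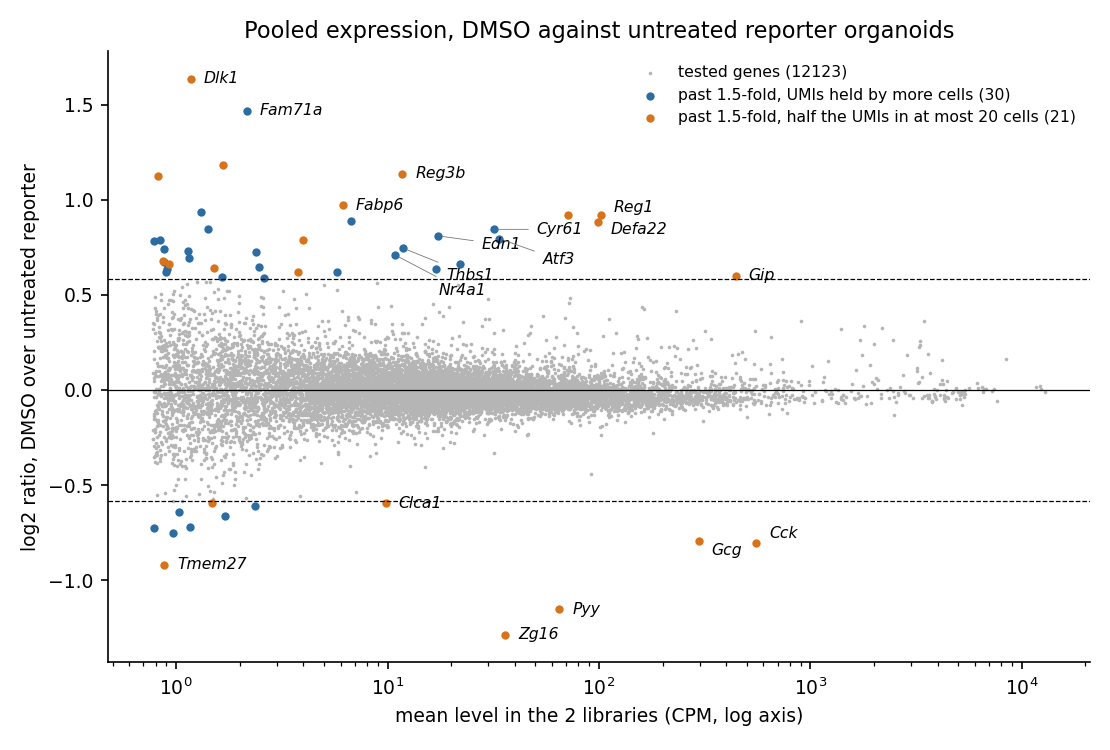
Each point is 1 of 12123 genes, with its mean level in the DMSO and untreated reporter libraries in CPM on the horizontal log axis and its log2 ratio, DMSO over untreated, on the vertical axis; dashed lines mark 1.5-fold. Of the 51 genes past these lines, 21 had 50% of their UMIs in at most 20 cells of a library, among them the hormones Cck, Gcg, Pyy and Gip, and 30 were spread over more cells, among them Cyr61, Atf3 and Edn1.

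The 51 genes formed a group held by very few cells and a group spread over many. For each gene the smallest number of cells that together held 50% of its UMIs was counted. In 95 of the tested genes this was at most 20 cells in either library, a limit set after the values were seen, and 21 of them (22.1%) passed 1.5-fold. Of the other 12028 genes 30 (0.249%) passed, 24 higher and 6 lower. None of the 143 genes with at least 1000 CPM passed.

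Among genes spread over many cells, several that respond quickly to growth factors, stretch or stress were higher with DMSO. Cyr61 (Ccn1 in RefSeq, chr3:145646971-145649985, GRCm38.p6), a secreted matrix protein and YAP target, had 22.7 CPM (21.9 to 23.5) untreated and 40.7 CPM (39.6 to 41.9) with DMSO, a ratio of 1.79 (1.72 to 1.88). Atf3 (chr1:191170296-191183333), a transcription factor of the stress response, had 24.7 CPM (23.9 to 25.6) untreated and 42.9 CPM (41.8 to 44.1) with DMSO, a ratio of 1.74 (1.66 to 1.81). Edn1 (chr13:42301476-42307990), which encodes endothelin-1, had 12.7 CPM (12.1 to 13.3) and 22.2 CPM (21.4 to 23), a ratio of 1.75 (1.65 to 1.86). In each gene the intervals of both libraries were apart. Nr4a1 (chr15:101253902-101274795), a nuclear receptor induced as an immediate early gene, had 8.26 CPM untreated and 13.5 CPM with DMSO, a ratio of 1.63 (1.51 to 1.77). Thbs1, the matrix protein thrombospondin-1, had 8.83 CPM untreated and 14.8 CPM with DMSO, a ratio of 1.68 (1.56 to 1.81). For Cyr61, 50% of UMIs came from 312 untreated and 418 DMSO cells, and for Edn1 from 122 untreated and 201 DMSO cells, so no small set of cells carried these differences.

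The promoters of 4 of these genes are shown because the genes were higher together. The sequences are the 250 bases before the start in RefSeq (GRCm38.p6), 5′ to 3′ on the strand of the gene: chr3:145649986-145650235 (minus strand) for Cyr61, chr1:191183334-191183583 (minus) for Atf3, chr13:42301226-42301475 (plus) for Edn1 and chr15:101266596-101266845 (plus) for Nr4a1. The Nr4a1 window lies inside the annotated span of the gene. Capitals mark matches on either strand to GGAATG, core letters of the TEAD factors that carry YAP to DNA (CATTCC on the other strand), and to TGACG, a cyclic AMP response element half-site (CGTCA on the other strand), which was added after the windows had been read.
Cyr61: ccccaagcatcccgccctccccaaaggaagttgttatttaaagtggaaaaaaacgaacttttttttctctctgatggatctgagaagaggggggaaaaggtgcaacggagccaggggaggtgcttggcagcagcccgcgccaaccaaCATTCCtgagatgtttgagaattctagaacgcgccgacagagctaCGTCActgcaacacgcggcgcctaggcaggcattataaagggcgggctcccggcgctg
Atf3: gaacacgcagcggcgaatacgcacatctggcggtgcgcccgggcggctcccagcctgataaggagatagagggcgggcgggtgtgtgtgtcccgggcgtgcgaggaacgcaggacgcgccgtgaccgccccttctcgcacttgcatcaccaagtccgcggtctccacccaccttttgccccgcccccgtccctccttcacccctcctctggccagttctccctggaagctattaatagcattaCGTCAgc
Edn1: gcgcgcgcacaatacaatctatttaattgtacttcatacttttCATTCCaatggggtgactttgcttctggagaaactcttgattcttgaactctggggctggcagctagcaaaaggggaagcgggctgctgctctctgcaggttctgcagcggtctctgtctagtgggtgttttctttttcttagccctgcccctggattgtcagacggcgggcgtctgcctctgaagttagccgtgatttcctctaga
Nr4a1: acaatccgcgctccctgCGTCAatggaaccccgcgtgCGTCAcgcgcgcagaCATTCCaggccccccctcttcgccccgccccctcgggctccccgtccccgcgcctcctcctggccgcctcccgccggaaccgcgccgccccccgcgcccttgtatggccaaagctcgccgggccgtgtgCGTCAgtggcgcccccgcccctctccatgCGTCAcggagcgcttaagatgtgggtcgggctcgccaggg
GGAATG matched 1 time each in Cyr61, Edn1 and Nr4a1 and had no match in Atf3, and 12.6% of 32851 windows of this length hold it. TGACG matched 1 time each in Cyr61 and Atf3 and 4 times in Nr4a1 and had no match in Edn1, and 17.8% of windows hold it. The AP-1 motif TGANTCA (6.75% of windows), the full element TGACGTCA (1.55%), of which TGACG is a piece, and the CArG box of serum response factor (1.47%) had no match in these 4 windows. The marked matches do not overlap, and binding was not tested.

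In the wild-type library, also untreated, all 5 genes stood above the untreated reporter. Cyr61 was at 44.5 CPM there, Atf3 at 49.7, Edn1 at 32.4, Nr4a1 at 12.2 and Thbs1 at 24.5 CPM. The untreated reporter was thus the lowest of the 3 libraries without Isx-9 for each of them. With Isx-9, Cyr61 was at 45.8 CPM, Atf3 at 32.2, Edn1 at 16.3 and Nr4a1 at 17.3 CPM.

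The difference ran through most kinds of cells. Clustering of both reporter libraries with wild type gave 8 classes named from markers and 5 unnamed clusters. Where such a class or cluster held at least 50 UMIs of the gene over both libraries, Cyr61 was higher with DMSO in 13 of 13 (ratios 1.31 to 2.56), Atf3 in 13 of 13 (1.13 to 2.07), Edn1 in 10 of 10 (1.26 to 4.91), Nr4a1 in 10 of 10 (1.08 to 1.85) and Thbs1 in 9 of 9 (1.1 to 2.5). In cycling-like cells Atf3 had 17 CPM untreated and 35.2 CPM with DMSO, a ratio of 2.07 (1.89 to 2.27). In enterocyte-like cells Cyr61 had 11.1 and 22 CPM, a ratio of 1.98 (1.52 to 2.58). The stem-like cells of both libraries sat in clusters 4 and 14, but in different proportions (given with the shares). Their class ratio was above that of both clusters for Cyr61, Edn1, Nr4a1, Fos and Dusp1. Not every interval lay above 1: for Nr4a1 in tuft-like cells the ratio was 1.08 (0.641 to 1.83).

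**Figure D2:**
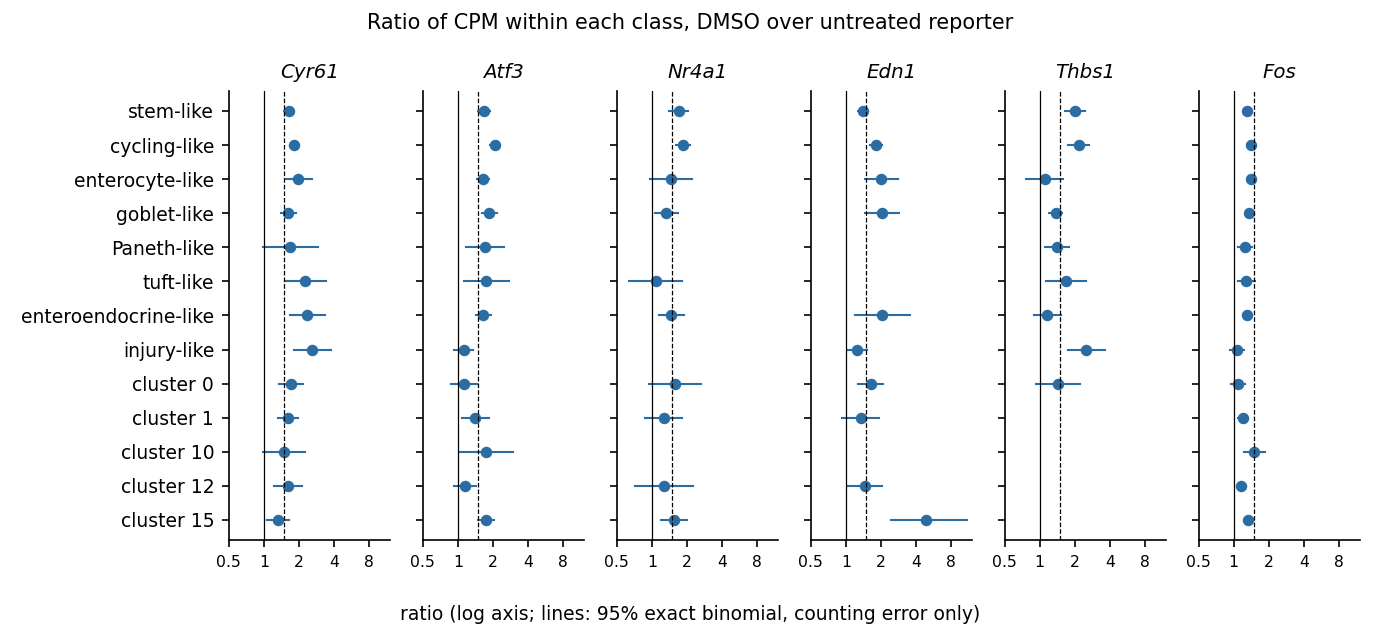
For 6 genes (panels), points give the ratio of CPM, DMSO over untreated reporter, within each class or unnamed cluster with at least 50 UMIs of the gene, on a log axis, and lines the exact 95% interval of counting error. All points for Cyr61, Atf3, Nr4a1, Edn1, Thbs1 and Fos lie above 1, and the highest Fos ratio is 1.4985.

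Immediate early genes, which are transcribed without new protein synthesis, leaned the same way as a list, by less. The list includes Atf3 and Nr4a1, already given above. Of 30 tested, 26 lay above equal levels and 3 passed 1.5-fold, all higher: Atf3, Nr4a1 and Egr3 (1.32 and 1.98 CPM, ratio 1.51, 1.24 to 1.84). The median log2 ratio of the list was 0.17, beside -0.01 over all genes tested, of which 0.421% passed 1.5-fold. Within the classes its median was 0.16 in stem-like, 0.21 in cycling-like, 0.27 in enterocyte-like, 0.13 in goblet-like and 0.18 in enteroendocrine-like cells. It was 0.04 in Paneth-like, 0.01 in injury-like and -0.10 in tuft-like cells. Fos, a subunit of AP-1, had 139 CPM untreated and 187 CPM with DMSO, a ratio of 1.34 (1.32 to 1.37), and was higher in 13 of 13 classes or clusters (1.06 to 1.4985). Dusp1, a phosphatase that switches off MAP kinases, had 17.6 CPM untreated and 25.7 CPM with DMSO, a ratio of 1.46 (1.39 to 1.54). It was higher in 11 of 12, with injury-like cells at 0.872 (0.684 to 1.11). In stem-like cells the ratio was 1.11 (0.95 to 1.29), but 0.889 (0.501 to 1.56) within cluster 4 and 0.912 (0.777 to 1.07) within cluster 14. For Fos these values were 1.3 (1.24 to 1.37), 0.885 (0.725 to 1.08) and 1.07 (1.02 to 1.13). Wild type held Fos at 194 and Dusp1 at 23.7 CPM.

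Fetal-like and YAP target genes, which are induced in regenerating epithelium, had the highest median of the 38 lists with at least 5 tested members. All 15 of 15 tested lay above equal levels, with a median log2 ratio of 0.23, and 2 passed 1.5-fold, Cyr61 and Msln. Over all genes tested 0.421% passed. Msln had 0.669 and 1.07 CPM, with 50% of its UMIs in 7 untreated and 4 DMSO cells, and its log2 ratio of 0.68 became -0.12 when each cell was weighted equally. Ctgf, another YAP target, had 1.31 CPM untreated and 1.75 CPM with DMSO, and Clu, a marker of revival stem cells, 6.27 and 8.19 CPM. Within the classes the list stood apart less, with medians of 0.14 in stem-like, 0.004 in cycling-like, -0.05 in enterocyte-like, -0.22 in goblet-like and -0.05 in injury-like cells over 7 to 12 tested members. In wild type over untreated reporter the same list had a median of 0.87, with 12 members past 1.5-fold. Of 18 genes of the EGF receptor and its ligands 0 passed, near the 0.421% of all genes that did, with a median of 0.14. The ligand Hbegf had 25.1 CPM untreated and 34.9 CPM with DMSO, a ratio of 1.39 (1.33 to 1.46).

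The other genes past 1.5-fold that were spread over many cells were mostly at low levels. Spink1, a trypsin inhibitor, had 17.1 CPM untreated and 27.1 CPM with DMSO, a ratio of 1.58 (1.5 to 1.67), with 50% of UMIs in 70 untreated and 78 DMSO cells, and 23.1 CPM in wild type. Fxyd4, a regulator of the sodium pump, had 1.02 and 1.83 CPM, and Podxl, a sialomucin of the apical membrane, 0.616 and 1.06 CPM. Lower with DMSO were Gatm, an enzyme of creatine synthesis (2.85 and 1.87 CPM, ratio 0.656, 0.555 to 0.774), Dynlt1c, a dynein light chain (2.08 and 1.31 CPM), and Rab37, a GTPase of secretory vesicles (1.45 and 0.881 CPM). Dynlt1c has near-identical copies, so its value is uncertain. Gatm was a leading gene of cluster 16 (described below), which held 153 DMSO and 260 untreated cells. The part of this cluster in the Gatm ratio was not tested.

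Of the goblet cell genes, a pair was lower with DMSO, and a handful of cells carried them. Zg16 (chr7:127050156-127052675), a lectin of goblet cell mucus, had 51 CPM (49.8 to 52.3) untreated and 20.9 CPM (20.1 to 21.7) with DMSO, a ratio of 0.41 (0.392 to 0.429). Of these UMIs 50% came from 5 untreated and 3 DMSO cells. Clca1, another secreted mucus protein, had 11.8 CPM untreated and 7.8 CPM with DMSO, with 50% in 7 untreated and 6 DMSO cells. Zg16 and Clca1 were the only goblet cell genes of 23 tested to pass 1.5-fold in all cells, beside 0.421% of all genes. The list had a median of -0.03. Muc2, the main mucin, had 38.1 and 35.5 CPM, a ratio of 0.932 (0.895 to 0.97).

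Lectins of the Reg family, which act on bacteria and in repair, were higher or equal with DMSO. Reg3b had 7.35 CPM untreated and 16.1 CPM with DMSO, a ratio of 2.2 (2.03 to 2.37), with 50% of UMIs in 4 untreated and 6 DMSO cells. Reg1 had 70.9 and 134 CPM, with 50% in 12 untreated and 14 DMSO cells, and Reg3a 13.2 and 20.5 CPM. Reg3g (log2 ratio 0.13) and Reg4 (0.11) were close to equal. Wild type held Reg3b at 42.1 and Reg1 at 64.1 CPM.

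Of 22 tested Paneth cell genes 18 lay above equal levels, with a median log2 ratio of 0.17. Past 1.5-fold were 2 of them, both alpha-defensins, beside 0.421% of all genes tested. Defa21 had 49.3 and 93.4 CPM, and Defa22 69.4 and 128 CPM. For Defa21 50% of UMIs came from 7 untreated and 6 DMSO cells. Lyz1, the lysozyme of the same granules, had 368 and 386 CPM, and Ang4, an antimicrobial ribonuclease, 49.5 and 42 CPM. Within Paneth-like cells the ratio was 1.73 (1.68 to 1.79) for Defa21 and 0.989 (0.972 to 1.01) for Lyz1. The alpha-defensins are near-identical copies, so how UMIs divide among them is uncertain.

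Genes shared by all enteroendocrine cells were near equal levels. The marked gene Chgb (chr2:132781642-132795079) had 529 CPM (525 to 533) untreated and 479 CPM (475 to 483) with DMSO, a ratio of 0.905 (0.895 to 0.915), against 725 CPM in wild type and 7341 CPM with Isx-9. Chga, its relative in the same granules, had 145 and 155 CPM, and Neurog3, the factor that commits cells to the lineage, 23.1 and 22.6 CPM. Of 24 pan-enteroendocrine genes 0 passed 1.5-fold, with a median log2 ratio of -0.01. Of 23 transcription factors of the lineage 0 passed either, with a median of 0.0021. Both counts are near the 0.421% of all genes that passed.

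Of 11 hormone genes 1 was higher and 3 were lower past 1.5-fold, with a median log2 ratio of -0.10. Over all genes tested 0.421% passed. Cck (chr9:121489824-121495694), the hormone of gallbladder contraction and satiety, had 707 CPM (703 to 712) untreated and 405 CPM (402 to 409) with DMSO, a ratio of 0.573 (0.567 to 0.579). Gcg, the precursor of glucagon-like peptides, had 376 CPM untreated and 217 CPM with DMSO, and Pyy, peptide YY, 89.6 and 40.3 CPM. Gip (chr11:96024532-96030831), the incretin of K cells, went the other way with 353 CPM (350 to 356) and 535 CPM (531 to 539.5), a ratio of 1.52 (1.5 to 1.53). In wild type Cck was at 623, Gcg at 746, Pyy at 222 and Gip at 195 CPM. Few cells carried these values: 50% of Gip UMIs came from 7 untreated and 12 DMSO cells, and 50% of Pyy UMIs from 5 untreated and 8 DMSO cells. Without the 8% of cells with the highest doublet scores, a limit added after the data were seen, the log2 ratio of Gip was 1.14 in place of 0.60.

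Enteroendocrine-like cells were then counted by their leading hormone. Each such cell with at least 20 UMIs over 10 hormone genes was assigned to the hormone with the most UMIs, 364 cells with DMSO and 412 untreated. Cck led in 52 DMSO and 80 untreated cells, with medians of 491.5 and 490 Cck UMIs, so these cells differed more in number than in level. Per cell of the library their number was 0.696 (0.482 to 0.9998) of the untreated. Gip led in 43 DMSO and 35 untreated cells, with medians of 1256 and 515 UMIs. Gcg led in 20 and 24 cells, with medians of 1093 and 1128 UMIs. Pyy led in 8 and 8 cells, with medians of 142.5 and 535.5 UMIs. Tac1, the tachykinin of enterochromaffin cells, led most often, in 167 and 175 cells. Cluster 18, led by Gip, Sst and Cck, had median depths of 9362 and 8455 UMIs per cell with DMSO and untreated.

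**Figure D3:**
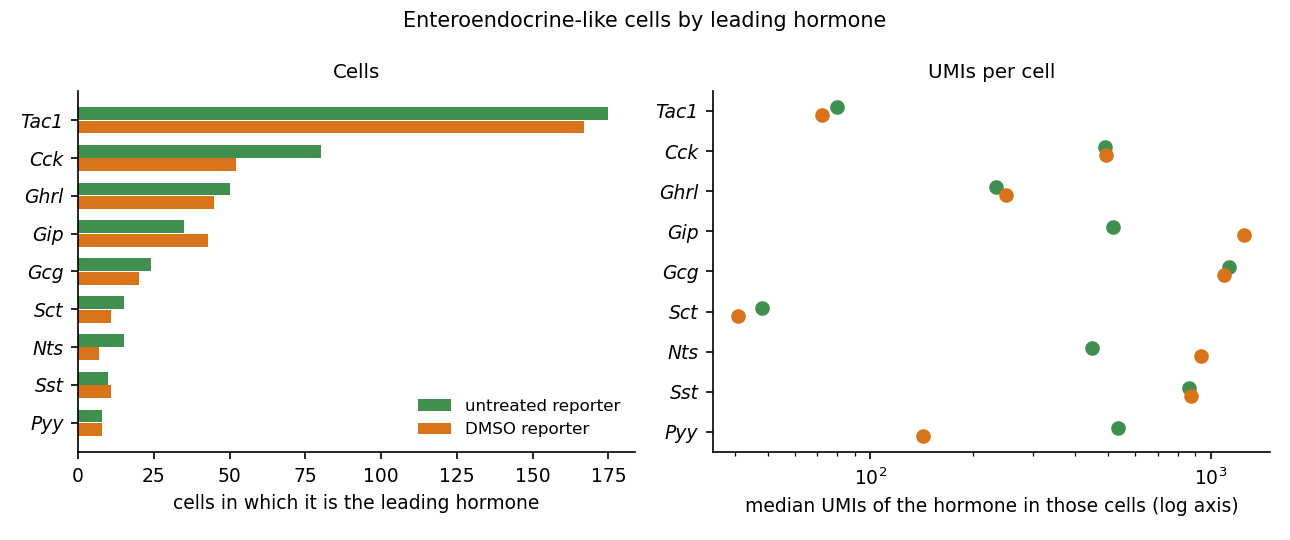
The panels give, for each hormone gene, the number of enteroendocrine-like cells of the untreated and DMSO reporter libraries in which it had the most hormone UMIs (bars from 0) and the median UMIs of that hormone in those cells (log axis). Cck led in fewer DMSO cells (52 against 80) at nearly equal medians, and Gip had a higher median with DMSO (1256 against 515).

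Stem cell genes were slightly higher and mitotic genes slightly lower with DMSO. None passed 1.5-fold over all cells, beside 0.421% of all genes tested. Of 18 stem cell genes 17 lay above equal levels, with a median log2 ratio of 0.13. Lgr5, the receptor that marks crypt base stem cells, had 137 CPM untreated and 152 CPM with DMSO, a ratio of 1.11 (1.08 to 1.13), and Olfm4, a secreted stem cell marker, 1829 and 2158 CPM (1.18, 1.17 to 1.19). Of 26 genes of mitosis and G2 24 lay below equal levels, with a median of -0.12, the lowest of the 38 lists. Mki67, a proliferation marker, had 181 and 164 CPM (0.905, 0.888 to 0.922). The 24 genes of DNA replication had a median of 0.02.

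Enterocyte genes were also a little higher. The 23 tested had a median log2 ratio of 0.14 and 0 passed 1.5-fold, near the 0.421% of all genes that did. Fabp1, a fatty acid carrier, had 486 and 604 CPM, and Apoa4, an apolipoprotein of chylomicrons, 61.1 and 85.6 CPM. Fabp6, the bile acid carrier of the ileum, had 4.15 CPM untreated and 8.14 CPM with DMSO against 117 CPM in wild type, and 50% of its UMIs came from 13 untreated and 3 DMSO cells.

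Over all cells, lists for responses to a solvent or to stress held no gene past 1.5-fold, apart from the immediate early list given above. That list held 3, with the stress response factor Atf3 among them. With 0.421% of all genes past it, counts of 0 in lists of this size are near the background, and the medians carry the description. The other lists were heat shock (14 genes, median -0.03), the unfolded protein and amino acid response (25 genes, median -0.0043), NRF2 and the pentose phosphate pathway (25 genes, median -0.01), xenobiotic metabolism (31 genes, median 0.05), sulfur compounds and methionine (17 genes, median -0.04), cholesterol (25 genes, median 0.01) and p53 targets (21 genes, median -0.04). Hspa1a, the inducible heat shock protein, had 1.52 CPM untreated and 1.18 CPM with DMSO. Hmox1, heme oxygenase, had 5.97 and 7.24 CPM (1.21, 1.1 to 1.34), and Cyp3a11, a drug-metabolising enzyme, 7.17 and 10.6 CPM (1.47, 1.36 to 1.6). Within the classes some members passed in either direction. In injury-like cells 2 of 21 unfolded protein genes were higher (1.25% of all genes passed there). In goblet-like cells 2 of 19 NRF2 genes were lower (0.374% of all genes). Hmox1 passed higher in 2 of 3 classes or clusters (0.949 to 1.7), and Cyp3a11 in the 1 compared (1.52). Over all 45 lists 19 of 691 distinct tested members passed 1.5-fold, in 9 lists, beside 51 of 12123 (0.421%) over all genes.

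**Figure D4:**
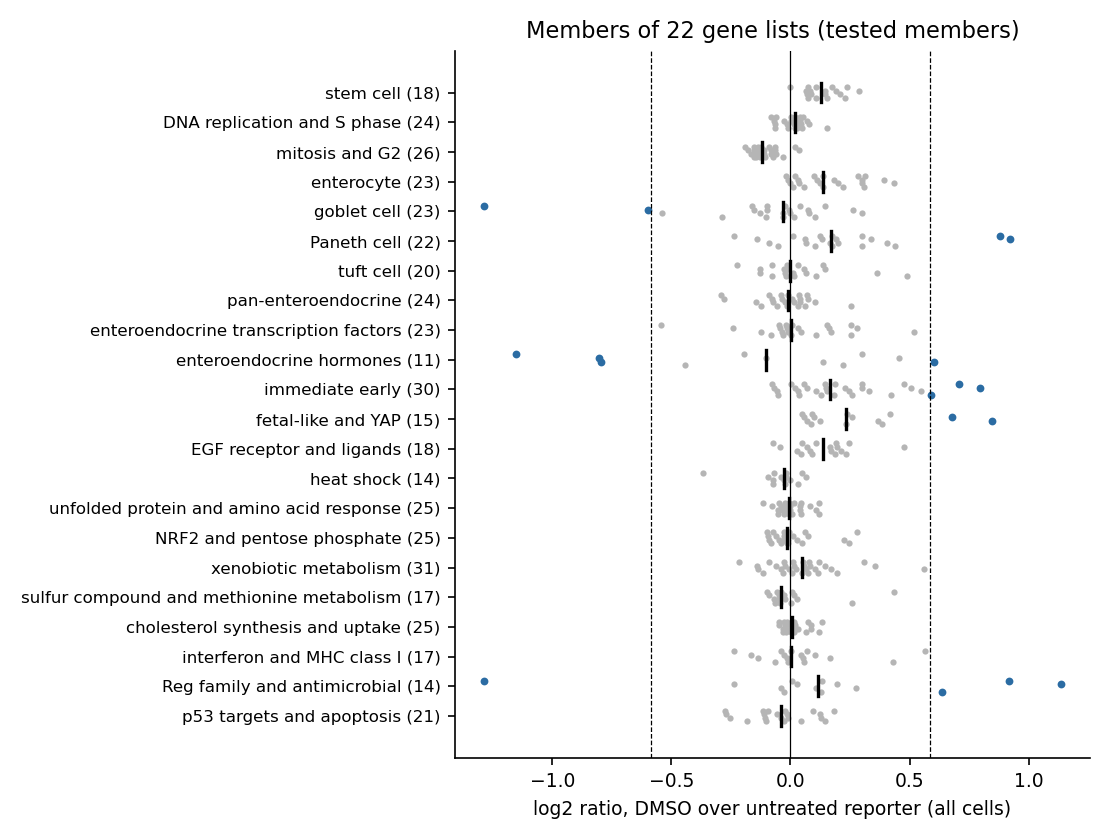
For each of the gene lists shown, points are the members' log2 ratios of CPM over all cells, DMSO over untreated reporter, dashed lines mark 1.5-fold and bars the list medians. Medians of the lists with at least 5 tested members lie between -0.12 (mitosis and G2) and 0.23 (fetal-like and YAP), and the points far from 0 are single genes such as Zg16, Pyy and Reg3b.

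Most cell classes took similar shares of both libraries. Clusters were called after a cell type where at least 3 markers were 1.5-fold higher than in other cells with a mean log2 difference of at least 0.5, limits set after the data were seen. The clusters without a name held 30.5% of DMSO, 33.6% of untreated and 31.6% of wild-type cells. Enteroendocrine-like cells made up 7.16% (6.63 to 7.71) of the DMSO library and 7.12% (6.61 to 7.65) of the untreated library. Goblet-like cells made up 6.95% and 7.32% (ratio 0.95, 0.851 to 1.06), Paneth-like cells 1.62% and 1.48% (1.09, 0.862 to 1.39) and tuft-like cells 3.87% and 3.66% (1.06, 0.908 to 1.23). Enterocyte-like cells made up 8.69% and 7.77% (1.12, 1.01 to 1.24), and cycling-like cells 22.4% and 24.7% (0.91, 0.857 to 0.966). The enterocyte-like class joined clusters 11 and 13. Cluster 13 was shallow, with medians of 1898 (DMSO) and 1863 UMIs per cell (untreated). It held 335 DMSO and 295 untreated cells (ratio 1.22, 1.04 to 1.43). Cluster 11, with medians of 16636 and 15727 UMIs, held 444 and 452 (1.05, 0.921 to 1.2).

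Stem-like and injury-like cells took larger shares with DMSO. Stem-like cells made up 15.6% (14.8 to 16.3) with DMSO and 12.2% (11.5 to 12.8) untreated, a ratio of 1.28 (1.18 to 1.39), and 5.88% of wild type. Cluster 4 held 584 DMSO and 674 untreated cells of the class, and cluster 14 held 813 and 495. The leading genes of cluster 14 included Edn1, Cyr61 and Nr4a1, so its size was not independent of their levels. With genes past 1.5-fold left out of the clustering, stem-like cells made up 11.9% and 9.02% (ratio 1.31, 1.2 to 1.44). The class was then 1 cluster, in which Edn1 and Cyr61 were at least 2-fold above the other cells, so this share too was not independent of their levels. Injury-like cells, led by Ly6d, Tmigd1, Fabp6, Anxa1, Slc10a2, Pmp22 and Sprr1a, of which Fabp6 and Slc10a2 are bile acid genes of ileal enterocytes, made up 3.19% and 2.22% (1.44, 1.2 to 1.73), against 10.5% in wild type, and their ratio was 1.28 (1.1 to 1.5) without genes past 1.5-fold.

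**Figure D5:**
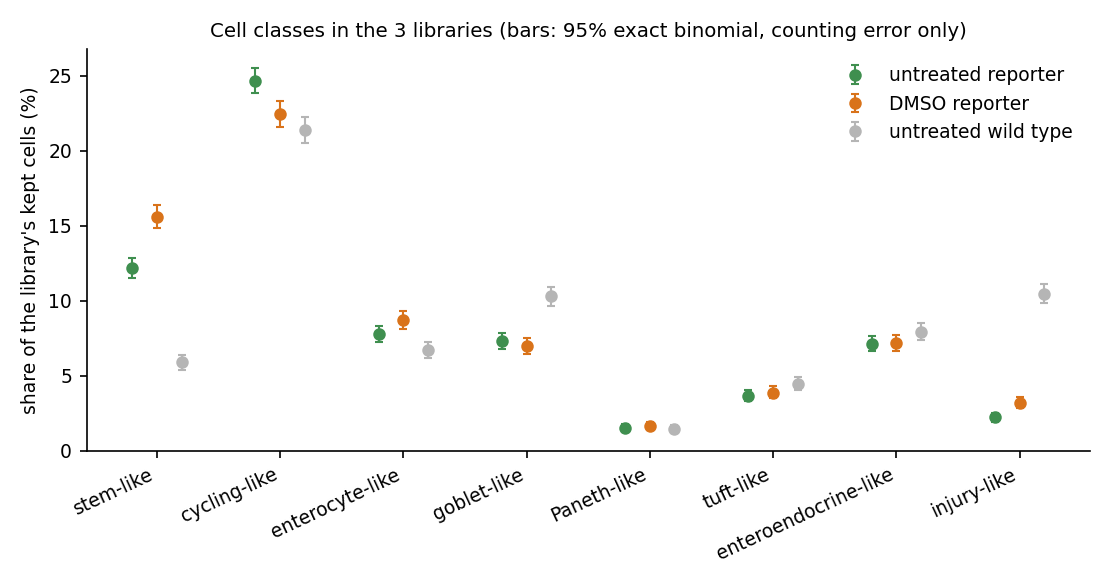
Points give the share of kept cells, in percent, of each named class in the untreated reporter, DMSO reporter and untreated wild-type libraries, with exact binomial 95% intervals of counting error. Stem-like cells stand at 12.2%, 15.6% and 5.88% and injury-like cells at 2.22%, 3.19% and 10.5%, while enteroendocrine-like cells stay between 7.12% and 7.91%.

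Cells led by Cox6b2, which encodes a subunit of cytochrome oxidase, were found in both reporter libraries and hardly in wild type. They formed the unnamed cluster 15, also led by Trf (transferrin), and the cycling-like cluster 16. Together these held 7.66% of DMSO cells and 9.82% of untreated cells, a ratio of 0.78 (0.706 to 0.861). It was 0.788 (0.713 to 0.87) when genes past 1.5-fold were left out of the clustering. In wild type cluster 15 held 7 of 8745 cells and cluster 16 held 0, which allows a share of up to 0.0343% (3 cells).

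Within the classes few genes passed 1.5-fold. In stem-like cells 13 of 8759 genes (0.148%) did, and the highest were Thbs1 (8.74 and 17.4 CPM, ratio 1.99, 1.63 to 2.45), Nr4a1, Atf3 and Cyr61. The stem cell markers were close to equal there, with Olfm4 at a ratio of 1.01 (0.9997 to 1.02) and Lgr5 at 1.09 (1.04 to 1.14), and Ascl2, a stem cell transcription factor, was at 0.894 (0.815 to 0.98). Over the classes and clusters compared, Olfm4 was higher with DMSO in 13 of 13 (ratios 1.01 to 2.01) and passed 1.5-fold in 4. Lgr5 was higher in 10 of 13 (0.877 to 1.34) and Ascl2 in 5 of 8 (0.785 to 1.18), and neither passed in any. By cluster, the ratio of Cyr61 was 1.05 (0.759 to 1.46) in cluster 4 and 1.36 (1.245 to 1.5) in cluster 14.

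In cycling-like cells 20 of 10123 genes (0.198%) passed 1.5-fold, with Reg1, Thbs1, Atf3, Nr4a1 and Cyr61 the highest. Reg1 had 50% of its DMSO UMIs in 2 cells there, while Atf3 had them in 103. In goblet-like cells 26 of 6960 genes (0.374%) passed. Zg16 was the lowest (692 and 209 CPM, ratio 0.302, 0.286 to 0.318), with 50% of its UMIs in 4 untreated and 2 DMSO cells. It was compared in 3 classes or clusters and passed 1.5-fold higher in 2 of them, with ratios from 0.302 to 42.7 over the 3. Among others the chemokine gene Ccl6 was also lower in goblet-like cells (82.7 and 40.9 CPM), while Muc2 had a ratio of 0.823 (0.784 to 0.865). In enterocyte-like cells 37 of 6113 genes (0.605%) passed, among them Reg3b (61.9 and 126 CPM) and Cyp2c29, a cytochrome P450 (15.5 and 33.2 CPM). Of these UMIs 50% came from 5 untreated and 3 DMSO cells for Reg3b, and from 13 and 10 for Cyp2c29. The brush border phosphatase gene Alpi had a ratio of 1.001 (0.933 to 1.07) there.

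In enteroendocrine-like cells 23 of 7012 genes (0.328%) passed 1.5-fold. Dlk1, a Delta-like protein, had 11.6 CPM untreated and 35.2 CPM with DMSO, the highest ratio there at 3.05 (2.32 to 4.03), and 2 cells held 50% of its DMSO UMIs. Hhex, a transcription factor of somatostatin cells, had 16.8 and 29.4 CPM, and Dusp1 24.5 and 42.7 CPM. For Hhex 50% of UMIs came from 7 untreated and 8 DMSO cells, and for Dusp1 from 25 and 31. Pyy had 1840.1 and 781 CPM, a ratio of 0.424 (0.41 to 0.439). Paneth-like cells had 14 of 1329 genes (1.05%) past 1.5-fold, tuft-like cells 51 of 4012 genes (1.27%) and injury-like cells 50 of 3991 genes (1.25%). Of the named classes these had the fewest cells, 145, 347 and 286 with DMSO. The unnamed cluster 0, with 260 DMSO cells, had 5 higher and 6 lower of 4112 genes past 1.5-fold. Cluster 10, with 370 DMSO cells, had 4 higher and 3 lower of 2727. The part of cell number in these counts was not tested. In tuft-like cells 6 of 9 tested genes of mitosis and G2 passed 1.5-fold higher (median 0.77), as did 3 of 13 stem cell genes, and 7 histone genes had a median of 0.51. The 12 tested tuft markers had a median of -0.16 there. The part of either in the values of single genes was not tested.

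Within injury-like cells, where 1.25% of all genes tested passed 1.5-fold, some genes of other cell types were higher. Of 15 tested enterocyte genes 6 passed 1.5-fold higher (median log2 ratio 0.50), and of 15 lipid genes 4. Both lists hold Fabp1 and Fabp2. So did 3 of 8 goblet cell and 3 of 9 Paneth cell genes pass higher, with 1 Paneth cell gene lower. For the goblet cell gene Agr2 50% of UMIs came from 9 untreated and 3 DMSO cells. The 6 tested markers of the class itself had a median of -0.10, with Ly6d lowest at -0.52. Their part in the values of single genes was not tested. In these cells Ada, adenosine deaminase, had 50.7 and 224 CPM and Fabp6 54.5 and 179 CPM. For both genes 2 cells held 50% of the DMSO UMIs. Spink1 had 26.4 and 81.2 CPM there, a ratio of 3.08 (2.39 to 4.01), with 50% of its UMIs in 7 untreated and 7 DMSO cells.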

How the data were processed

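Single-cell RNA-seq libraries of the untreated and DMSO-treated reporter were compared, with the untreated wild type used for scale and for clustering and the Isx-9 library for side-by-side levels. The matrices hold UMI counts per gene and cell as the authors deposited them, without normalization. The submitters' processing notes name Cell Ranger 3.1.0, Seurat 3.1.5 and GRCm38, without their roles or order. The bulk RNA-seq and ATAC-seq samples were not used here.

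UMIs of the kept cells were summed per library and scaled to CPM. Levels carry exact Poisson intervals, ratios exact conditional binomial (Clopper-Pearson) intervals and shares exact binomial intervals. Genes with at least 200 UMIs over both libraries (within the class, for a class) were compared, and the calculation was tested on simulated data. Log-normalised counts (10000 UMIs per cell) of the 3 libraries were clustered together, with the markers left out of 2000 variable genes, 30 components, 15 neighbours and Leiden resolution 1. Scrublet called too few doublets to be usable, so doublets were kept. Tools were Python 3.11.15, numpy 2.4.6, scipy 1.17.1, pandas 2.3.3, scanpy 1.11.5, igraph 0.11.9 and, for TMM factors as an alternative scaling, edgeR 4.0.16 in R 4.3.3.

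Genes to name were the 15 highest and 15 lowest ratios with at least 20 UMIs in the lower library, without predicted and sex-linked genes, up to 4 members of each list with the largest ratios, a set of lineage genes whatever their value, and the 5 highest and 5 lowest within a class. Thbs1 in all cells, Reg3g, Reg4, Ang4, Rpl38 and Spink1 in all cells fell outside this rule and were chosen after their values were seen. The comparison, the lists and their members were chosen with earlier results of these data known. Coordinates and sequences are from RefSeq (GRCm38.p6), with coordinates for 184 of 188 named genes.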

Additional observations from a re-analysis of the deposited data

How the results depend on the processing

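No paired analysis was possible because each group had 1 library. Of the 51 genes past 1.5-fold, 0 passed 1.5-fold the other way in any of the alternatives for all cells, while the log2 ratio of Msln went from 0.68 to -0.12 with each cell weighted equally. The 38 higher and 13 lower genes became 169 and 108 with at least 50 UMIs over both libraries, 16 and 5 with at least 1000, and 5 and 2 at a fold of 2. With each cell weighted equally there were 54 and 25, of which 27 and 10 were among them. With the same mixture of classes in both libraries there were 27 and 17, of which 27 and 12 were among the 38 and 13. The ratio of stem-like shares, 1.28, was 1.09 at resolution 0.5, 1.13 with the 2 reporter libraries clustered alone and 1.14 at no more than 10% mitochondrial UMIs. The ratio for enterocyte-like cells, 1.12, was 0.99 at resolution 0.5, and that for injury-like cells, 1.44, was 1.18 with the 2 reporter libraries alone. No goblet-like class formed at resolution 0.5. The cause of these shifts was not tested. Of 1486 values of 187 named genes under the alternatives, 1331 stayed within their counting interval. Leaving out called doublets was not run, since Scrublet called 1, 0 and 0 in wild type, untreated and DMSO reporter, and its top 8% of scores, chosen after seeing the data, were left out instead. Depth limits genes under 10 CPM, where 0.775% of genes passed 1.5-fold.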

Other observations

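Fam71a had the highest ratio of the genes spread over many cells, with 1.146 CPM untreated and 3.17 CPM with DMSO, a ratio of 2.77 (2.29 to 3.36), and 2.39 CPM in wild type. Its neighbour in RefSeq is Atf3. Both lie on the minus strand of chromosome 1, and Fam71a (chr1:191162584-191164817, GRCm38.p6) follows the end of Atf3 after 5478 bases in the direction of transcription, with 0 annotated genes between them. Whether the UMIs come from Fam71a itself was not tested.

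Among the 143 genes with at least 1000 CPM, the 4 highest ratios belonged to ribosomal protein genes, while the list of 24 such genes had a median log2 ratio of -0.02. Rps29 had 3029 CPM untreated and 3893 CPM with DMSO and 3264 CPM in wild type, and Rpl38 1582 and 1995 CPM. The mitochondrially encoded mt-Nd3, a subunit of complex I, had 794 and 1021 CPM and 727 CPM in wild type. Rps29 was higher with DMSO in 13 of 13 classes or clusters (ratios 1.19 to 1.33), and so was mt-Nd3 (1.21 to 1.41). The metallothioneins, which bind zinc and copper, were higher in as many: Mt1 had 7912 and 8863 CPM (ratios 1.05 to 1.252) and Mt2 1642 and 1867 CPM (1.02 to 1.35).

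Single cells set some of the most extreme ratios within classes. In tuft-like cells Gcg had 25 untreated and 212 DMSO UMIs, of which 186 were in 1 cell. In enterocyte-like cells Ghrl, the ghrelin gene, had 68 and 319 UMIs, with 244 in 1 DMSO cell. In Paneth-like cells Sprr2a3 had 631 and 105 UMIs, with 416 in 1 untreated cell. In enteroendocrine-like cells the defensin gene Defa30 had 861 and 282 UMIs, with 533 in 1 untreated cell.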
